A study of Arabidopsis thaliana with 12 samples.

Results

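In the psah2 mutant of Arabidopsis thaliana, 47 genes had lower array signals than in the wild type (WT) even after every array was divided by its own median. They were chosen from probes annotated with exactly 1 gene and above 0 on all 12 arrays. On the centred scale, where an intensity is a multiple of the median of all probes on its array, the highest psah2 value of each gene lay below its lowest WT value. Of 422 eligible single-gene probes 53 met this rule, and 6 of these were set aside by name, which left 47. The array held 3439 probes, of which 692 named 1 gene. Since the comparison of psah2 with WT itself chose the genes, all differences below are descriptions with no test.

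Total RNA was measured on single-colour arrays, with 6 samples of psah2, a mutant lacking the photosystem I protein PSI-H2, and 6 of WT. Both groups were in ecotype Columbia 0. The sources used here give neither the tissue, age and growth conditions nor the kind of psah2 allele. They also do not state whether separate plants were sampled, so the spread between samples may be technical. Neither PSAH2 nor its close copy PSAH1 was listed for any probe, so the mutation was not checked by its transcript.

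PSI-H belongs to photosystem I, the thylakoid complex that uses light to pass electrons from plastocyanin to ferredoxin. In Arabidopsis it lies where light-harvesting complexes of photosystem II dock to photosystem I during state transitions, the process by which plants share absorbed light between both photosystems. None of the 47 genes is described below as a part of that complex. The reference table gave a name beyond the locus for only 4 of them (UBA1A, Cpn60beta4, CML30 and XERICO). For others the protein family is given as background from general knowledge of Arabidopsis, and the remaining loci are given by number alone.

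The arrays of both genotypes differed in typical brightness, which sets how far the centring moves each value. Deposited intensities reach at most 100, and their array median was 0.0946 ± 0.0037 in psah2 and 0.339 ± 0.033 in WT (SD, n = 6 each), while the mean intensity was 0.809 ± 0.037 in psah2 and 0.943 ± 0.073 in WT. On average 21.3% ± 1.0 of all probes stood at 0 on psah2 arrays, against 13.5% ± 0.3 on WT arrays. Dividing by the median raised psah2 values 3.57-fold relative to WT on the mean log2 scale. Of 9 green-tissue markers 5 had a single-gene probe. Of these, 4 had higher deposited means in psah2, opposite to the 47 genes, with 6.96 in psah2 and 1.59 in WT for PRK, 11.7 in psah2 and 4.33 in WT for PSAN, 6.29 in psah2 and 2.15 in WT for PSBY, and 34.9 in psah2 and 12.2 in WT for LHB1B2. SBPASE stood at 0 on 4 psah2 and on all 6 WT arrays. Whether the shift of these markers has a part in the lower values of the 47 genes was not tested. None of 9 root and seed markers had a single-gene probe.

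After centring, the 47 genes were lower in psah2 by a median of 2.14-fold, with a range from 1.33-fold to 6.70-fold. The median log2 change, psah2 minus WT, was -1.10 for these genes and 0.20 for all 422 eligible single-gene probes. Of the 47, 26 were lower by at least 2-fold and 5 of those by at least 4-fold, 17 by 1.5-fold to under 2-fold, and 4 by less than 1.5-fold. The rule was met downwards by 12.6% of the eligible single-gene probes and upwards by 30.1%. Among all 2133 probes above 0 on every array, named or not, the shares were 8.86% downwards and 36.6% upwards.

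**Figure D1:**
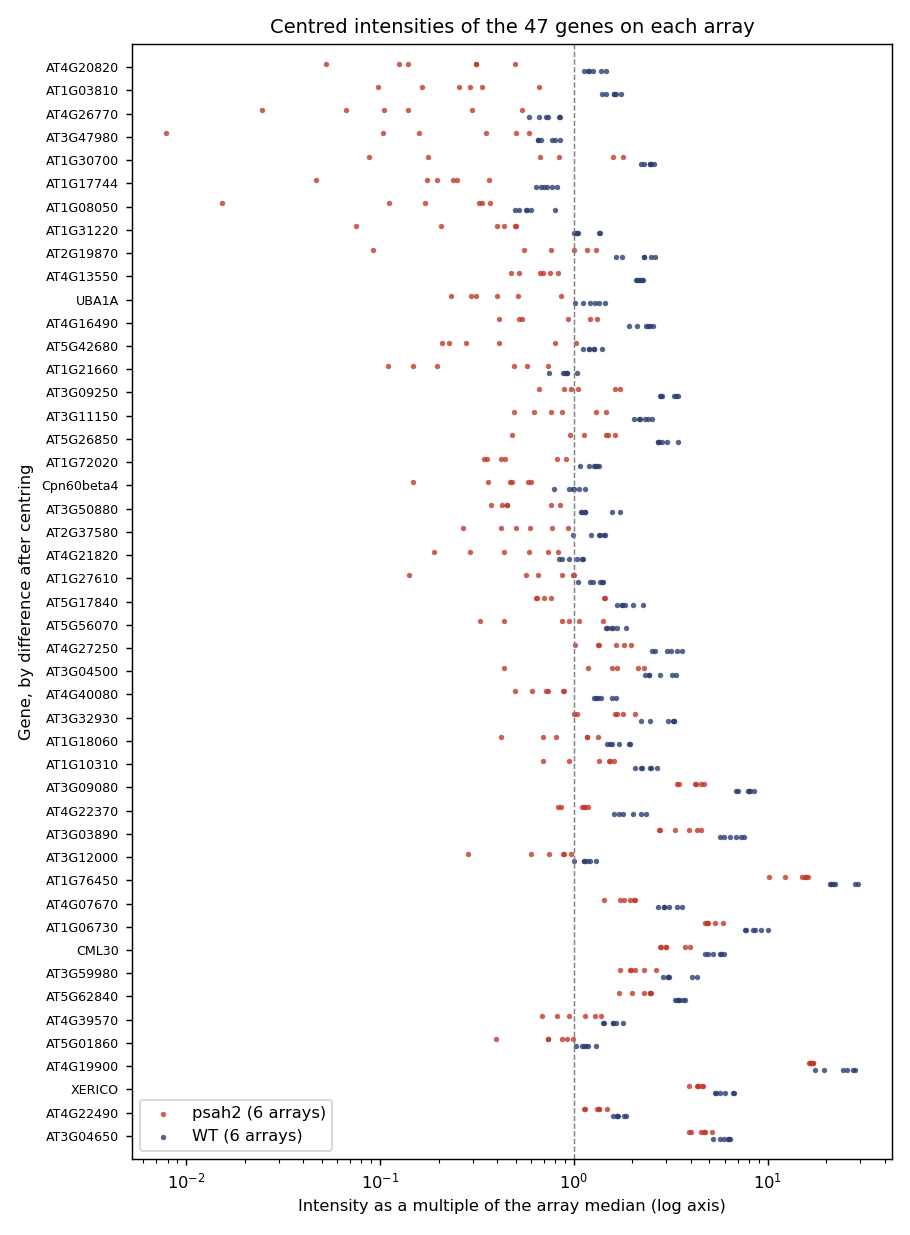
Centred intensity of each of the 47 genes on each array, as a multiple of the array median on a log axis; red points are the 6 psah2 arrays, blue points the 6 WT arrays, and genes run from the largest difference at the top (AT4G20820, 6.70-fold) to the smallest at the bottom (AT3G04650, 1.33-fold). The psah2 points are widely scattered for many upper genes and tighter for many lower ones. Exceptions are AT4G13550 near the top, which is fairly tight, and AT5G01860 near the bottom, which is scattered. WT points are tight for nearly every gene. The separation of the colours is the rule itself.

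The typical gene of the set lay below the median of the array in psah2 and above it in WT. The median over the 47 genes ranged from 0.822 to 0.983 times the array median on psah2 arrays and from 1.67 to 1.85 times on WT arrays. The other 369 eligible probes ran the opposite way, with medians from 1.90 to 2.22 times the array median on psah2 arrays and from 1.44 to 1.51 times on WT arrays. On a psah2 array 24 to 29 of the 47 genes lay below the array median, against 5 to 7 on a WT array. Of the set, 9 genes were below the median on all 6 psah2 arrays and above it on all 6 WT arrays. The rule itself places psah2 below WT for every gene of the set, and such counts over all eligible probes are not given here.

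**Figure D2:**
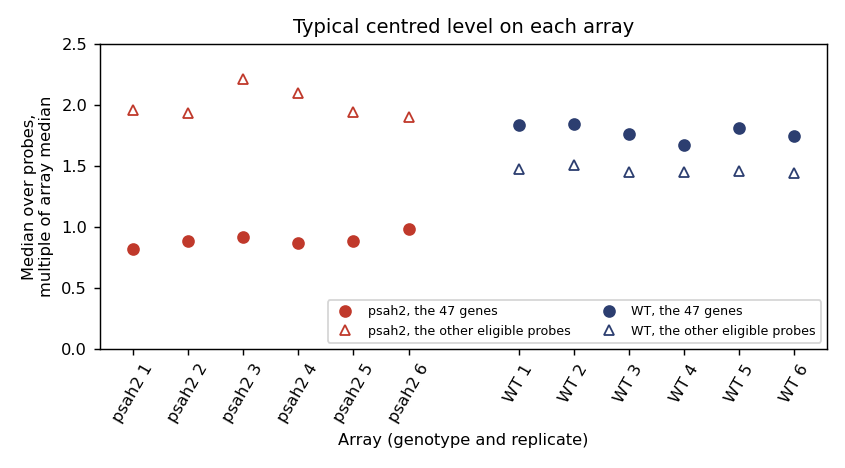
Median centred level on each array, as a multiple of the array median, for the 47 genes (filled circles) and the other 369 eligible single-gene probes (open triangles), with psah2 arrays in red on the left and WT arrays in blue on the right. The circles lie below 1 on every psah2 array and above 1.6 on every WT array, and the triangles are higher on the psah2 arrays than on the WT arrays.

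The position of a probe within its array does not depend on how the array is scaled. Averaged over arrays, the median percentile of the 47 genes among all 3439 probes was 45.0 in psah2 and 73.3 in WT, and that of the 422 eligible probes was 64.0 in psah2 and 66.1 in WT. Every gene of the set had a lower mean percentile in psah2, by 4.58 points for AT4G19900 at the least and by 36.9 points for AT1G03810 at the most. Points do not measure fold difference, since a few points near the top of an array span a wide range of intensity. AT4G19900 lay there in both groups, at 94.0 in psah2 and 98.6 in WT. Percentiles of psah2 and WT arrays did not overlap for 42 of the 47 genes, where 26.3% of the eligible probes met the same criterion. They overlapped for AT4G26770, AT3G47980, AT1G08050, AT1G21660 and AT4G21820. All 5 of these were dim, with WT means from 0.200 to 0.332. On at least 1 psah2 array 12 of the 47 genes lay below the 25th percentile, a little above the probes at 0, and on WT arrays 0 of the 47 did. The matching counts over all eligible probes are not given, so these describe the set only.

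**Figure D3:**
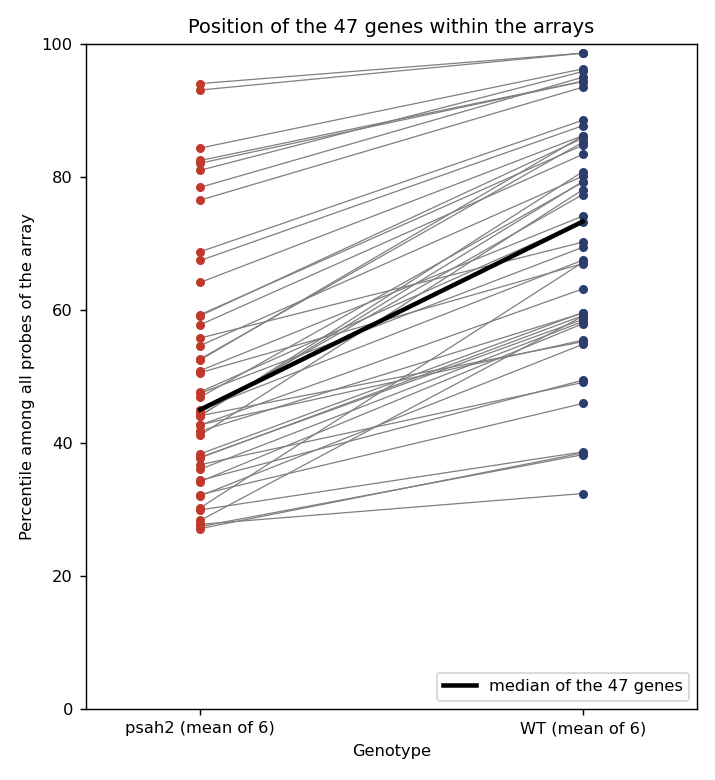
Mean percentile of each of the 47 genes among all probes of the array, psah2 on the left in red and WT on the right in blue, with a grey line per gene and the median of the set in black. The black line joins 45.0 in psah2 to 73.3 in WT, and the lines of the brightest genes at the top are nearly flat.

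Among 6 oxidoreductases of the set, 4 were lower by at least 2-fold, and the group held both the largest and the smallest difference of all 47 genes. AT4G20820, a berberine bridge enzyme-like protein of a family of FAD-dependent oxidases, had a deposited intensity of 0.0050 at the lowest, 0.0205 at the median and 0.0495 at the highest on psah2 arrays, against 0.402, 0.423 and 0.446 on WT arrays. After centring it was 6.70-fold lower (log2 change -2.74, SE 0.49, n = 6 each). AT1G30700, of the same family, had 0.0080, 0.0715 and 0.172 on psah2 arrays, against 0.739, 0.779 and 0.944 on WT arrays, and was 4.48-fold lower after centring (log2 change -2.16, SE 0.72). The psah2 values of AT1G30700 spread over more than an order of magnitude, while its WT values were close together. AT3G11150, of the 2-oxoglutarate and Fe(II)-dependent oxygenases, was 2.67-fold lower after centring. AT4G27250 and AT1G10310, both with a Rossmann fold that binds NAD(P), were 2.05-fold and 1.93-fold lower. AT3G04650, an FAD/NAD(P)-binding oxidoreductase, had 0.382, 0.429 and 0.477 on psah2 arrays, against 1.92, 1.98 and 2.15 on WT arrays. Its difference was only 1.33-fold after centring (log2 change -0.41, SE 0.08), the smallest of the set, with tight values in both groups.

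Proteins that bind or modify nucleic acids gave 6 genes, of which 4 were lower by at least 2-fold. AT1G03810, with the OB fold found in many nucleic acid-binding proteins, had deposited intensities of 0.0090, 0.0257 and 0.0609 on psah2 arrays (lowest, median, highest), against 0.501, 0.535 and 0.556 on WT arrays. It was 6.23-fold lower after centring (log2 change -2.64, SE 0.39). Another OB-fold gene, AT3G59980, was brighter, at 0.156, 0.188 and 0.262 on psah2 arrays against 0.876, 1.03 and 1.63 on WT arrays, and was 1.61-fold lower after centring. AT2G19870, of the SpoU family of RNA methyltransferases, was 3.46-fold lower with an SE of 0.59 on the log2 scale. Its intensities ran from 0.0084 over 0.0832 to 0.124 on psah2 arrays, against 0.501, 0.766 and 0.996 on WT arrays. UBA1A (AT2G22090), an RNA-binding protein that associates with the oligouridylate-binding protein UBP1, had 0.0232, 0.0333 and 0.0773 on psah2 arrays, against 0.368, 0.428 and 0.448 on WT arrays, and was 3.12-fold lower after centring. AT3G04500, with an RNA recognition motif, was 1.99-fold lower, and AT3G50880, a DNA glycosylase-family protein of base excision repair, was 2.42-fold lower.

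Of 4 genes of lipids and membrane traffic, 2 were lower by at least 2-fold. AT4G26770, a CDP-diacylglycerol synthase that makes a precursor of phospholipids, had 0.0023, 0.0114 and 0.0492 on psah2 arrays, against 0.196, 0.231 and 0.320 on WT arrays, and was 5.81-fold lower after centring (log2 change -2.54, SE 0.65). Its WT values lay below the array median on all arrays, so the gene was dim in both groups. AT4G13550, a plastid lipase that acts on galactolipids of the thylakoid membrane under heat, was brighter and tighter, with 0.0439, 0.0646 and 0.0787 on psah2 arrays against 0.680, 0.720 and 0.824 on WT arrays. It was 3.38-fold lower after centring (log2 change -1.76, SE 0.13), the smallest SE among the 10 largest differences. AT4G40080, with an ENTH domain of clathrin-mediated traffic, was 1.99-fold lower. AT4G22490, of the lipid transfer protein family, was 1.33-fold lower.

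Genes related to protein folding or to the thylakoid lumen numbered 4, of which 3 were lower by at least 2-fold. Cpn60beta4 (AT1G26230) is a subunit of the plastid chaperonin that in Arabidopsis is needed to fold NdhH, a subunit of the NDH complex of cyclic electron flow. It had 0.0147, 0.0442 and 0.0565 on psah2 arrays, against 0.299, 0.329 and 0.383 on WT arrays, and was 2.45-fold lower after centring (log2 change -1.29, SE 0.32). AT1G21660, with a J domain, was 3.03-fold lower, and AT5G17840, with a DnaJ-type zinc finger, was 2.14-fold lower. AT1G76450, a PsbP-domain protein of the thylakoid lumen related to the extrinsic PsbP subunit of photosystem II, was the brightest gene of the set. It had 0.990, 1.40 and 1.49 on psah2 arrays, against 6.59, 7.05 and 11.0 on WT arrays. After centring AT1G76450 was 1.70-fold lower (log2 change -0.76, SE 0.14), and its lowest WT value was 1.31 times its highest psah2 value.

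Of 4 other enzymes only AT1G31220 was lower by at least 2-fold. AT1G31220, a glycinamide ribonucleotide transformylase of purine synthesis, had 0.0068, 0.0400 and 0.0487 on psah2 arrays, against 0.305, 0.392 and 0.454 on WT arrays, and was 3.81-fold lower after centring. AT4G19900, of an alpha-1,4-glycosyltransferase family, was the second brightest gene of the set. It had 1.497, 1.59 and 1.71 on psah2 arrays, against 6.63, 8.34 and 8.54 on WT arrays, a 1.40-fold difference after centring (log2 change -0.49, SE 0.12). AT1G06730, a pfkB-type carbohydrate kinase, had 0.433, 0.479 and 0.534 on psah2 arrays, against 2.35, 2.84 and 3.82 on WT arrays, and was 1.69-fold lower. AT5G62840, of the phosphoglycerate mutase family, was 1.59-fold lower.

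Zinc finger, RING and calcium-binding proteins gave 5 genes, of which 2 were lower by at least 2-fold. XERICO (AT2G04240), a RING-H2 protein whose overexpression raises abscisic acid levels, had 0.389, 0.410 and 0.449 on psah2 arrays, against 1.90, 2.01 and 2.04 on WT arrays. It was 1.36-fold lower after centring (log2 change -0.44, SE 0.07), with the lowest SE of all 47 genes. CML30 (AT2G15680), a calmodulin-like calcium sensor, had 0.273, 0.282 and 0.359 on psah2 arrays, against 1.58, 1.70 and 2.26 on WT arrays, and was 1.68-fold lower. AT1G08050, with a RING finger, was 3.89-fold lower after centring with an SE of 0.72 on the log2 scale, and its WT mean of 0.200 was the lowest of the set. AT2G37580, also with a RING finger, was 2.40-fold lower, and AT5G01860, with a C2H2 zinc finger, was 1.54-fold lower.

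The remaining 18 genes were put in no group, and 10 of them were lower by at least 2-fold. Their differences after centring ran from 1.55-fold (AT4G39570, a kelch-repeat F-box protein) to 4.72-fold (AT3G47980, an HPP-family membrane protein). AT3G47980 had 0.00072, 0.0242 and 0.0584 on psah2 arrays, against 0.219, 0.252 and 0.266 on WT arrays. Its log2 change of -2.24 had an SE of 0.95, the largest of the set. Without psah2 replicate 1, the array nearest to 0, the log2 change of AT3G47980 was -1.38. AT1G08050 was the other gene that moved by over 1.5 times without 1 array, at a log2 change of -1.30 without psah2 replicate 4, against -1.96 with all arrays.

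Among these 18 the brightest were AT3G09080, a WD40-repeat protein, and AT3G03890, a protein of the heme oxygenase-like FMN-binding fold. AT3G09080 had 0.340, 0.391 and 0.450 on psah2 arrays, against 2.40, 2.62 and 2.83 on WT arrays, and was 1.89-fold lower after centring (log2 change -0.92, SE 0.09). AT3G03890 had 0.251, 0.341 and 0.447 on psah2 arrays, against 1.91, 2.03 and 2.87 on WT arrays, and was 1.87-fold lower. Both groups of arrays were tight for AT3G09080, with an SD of log2 values of 0.19 in psah2 and 0.12 in WT. AT3G03890 was more spread in psah2, with 0.31 against 0.16 in WT. The mean percentiles of AT3G09080 and AT3G03890 were 81.0 and 78.4 in psah2, against 95.9 and 95.0 in WT. AT4G16490, an armadillo-repeat protein, was 3.09-fold lower, AT3G09250, with a nuclear transport factor 2-like fold, 2.83-fold, and AT4G21820, a calmodulin-binding protein with IQ motifs, 2.16-fold. AT4G07670, with a protease-associated domain, was 1.70-fold lower and AT3G12000, related to S-locus glycoproteins, also 1.70-fold. The loci given by number alone were AT1G17744 (3.98-fold), AT5G42680 (3.05-fold), AT5G26850 (2.62-fold), AT1G72020 (2.46-fold), AT1G27610 (2.15-fold), AT5G56070 (2.13-fold), AT3G32930 (1.95-fold), AT1G18060 (1.94-fold) and AT4G22370 (1.88-fold).

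On the centred scale, dim genes among the 47 showed the larger differences and, in psah2, the larger spread. The SD of psah2 log2 values was largest for the dim AT3G47980, at 2.32, and smallest for the bright AT4G19900, at 0.033. The rule builds in part of this, since a gene with scattered values can meet it only with a large difference. Over the 47 genes the centred log2 change correlated with the mean log2 intensity at r = 0.78 in psah2 and r = 0.55 in WT, a description over genes measured on the same arrays, where psah2 intensity also enters the change. The mean deposited intensity ran from 0.0182 to 1.58 in psah2 and from 0.200 to 8.19 in WT, with 29 genes below 0.1 in psah2. The median SD between arrays on the centred log2 scale was 0.61 in psah2 and 0.15 in WT for the 47 genes, and 0.44 in psah2 and 0.17 in WT for the 422 eligible probes. The SD was larger in psah2 than in WT for 43 of the 47 genes and for 378 of the 422 probes.

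**Figure D4:**
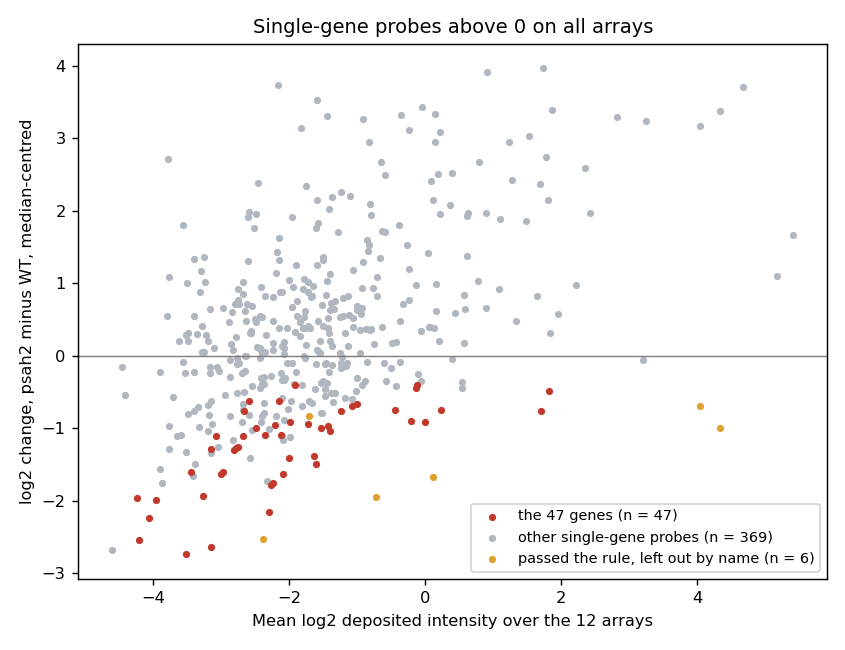
Median-centred log2 change, psah2 minus WT, against the mean log2 deposited intensity over the 12 arrays for the 422 eligible single-gene probes; red points are the 47 genes, orange points the 6 that passed the rule and were left out by name, and grey points the other 369 probes. Bright red points lie close to 0 and dim ones reach down to -2.74, and some dim grey probes lie as low as red ones because their groups overlapped.

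Consecutive replicates resembled each other. In WT the median absolute log2 difference over the 47 genes was 0.07 to 0.10 between replicates 1 and 2, 3 and 4, and 5 and 6, and 0.13 to 0.23 between other replicates. In psah2 it was 0.23 to 0.42 between these consecutive replicates and 0.29 to 0.78 between others. Whether consecutive replicates came from the same RNA was not stated, and the spread over 6 arrays treats them as separate.

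The threshold of the rule lay within a continuous range. The members closest to it were AT1G21660, AT3G04650, AT4G21820 and AT3G04500, whose lowest WT value was 1.006, 1.007, 1.009 and 1.016 times the highest psah2 value. Just outside lay AT1G67930, AT5G15390, LAS (AT1G55580) and AT3G16310, at 0.960, 0.968, 0.983 and 0.993 times. AT1G67930, outside the rule, was lower by 1.35 on the centred log2 scale, a larger difference than in most members, with 1 psah2 array at 0.933 times the array median against a lowest WT array at 0.895 times.

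With quantile normalization 40 of the 47 genes had a larger difference than after centring, and 7 dim genes had a smaller one, such as AT4G26770 at a log2 change of -2.25 and AT1G08050 at -1.69. The order of the genes changed with it. The bright AT1G76450 and AT4G19900 went from -0.76 and -0.49 after centring to -2.64 and -2.48, while the dim AT5G01860 was at -0.83. Larger differences in dim genes thus belong to the centred scale. Quantile normalization, which gives all arrays one distribution, put the median log2 change of the 47 genes at -1.71, against -0.30 for the 422 eligible probes. In the values as deposited it was -2.94, against -1.64. Values of psah2 and WT did not overlap for any of the 47 genes on either scale. Of the 422 eligible probes, 31.8% met that criterion after quantile normalization and 309 met it as deposited. In the limma fit on quantile-normalized values of all probes, 36.2% of 2643 tested probes were called lower in psah2, and 46 of the 47 genes were among them. The exception was AT3G47980. In the fit on median-centred values 17.0% were called lower, and all 47 genes were. Since the rule used the same comparison, these counts do not add to it.

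The loci of the set lay on all 5 nuclear chromosomes, with 13 on chromosome 1, 5 on chromosome 2, 11 on chromosome 3, 12 on chromosome 4 and 6 on chromosome 5. Of the 422 eligible probes, 421 had a locus there, with 105, 70, 76, 84 and 86 in the same order. No gene of the set was next to another, and at least 12 protein-coding genes lay between any neighbouring members of the set in the reference gene order.

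Another 7 probes listed a gene of the set together with other genes, so their signal cannot be given to it alone. Of the 3 that were above 0 on all arrays, none had centred psah2 values that all lay below WT. The probe listing AT1G31220 was higher in psah2 after centring, at a log2 change of 1.20 against -1.93 for the gene's own probe, with deposited intensities of 0.268 ± 0.050 in psah2 and 0.412 ± 0.024 in WT (SD, n = 6 each). Those listing AT5G56070 and AT5G42680 had log2 changes of -0.53 and -0.12 with overlapping groups. The other 4 probes stood at 0 on some arrays. The one listing AT1G03810 was at 0 on all 6 psah2 arrays and at 0.306 ± 0.121 in WT, and the one listing AT3G03890 was at 0 on all 6 WT arrays and at 0.0615 ± 0.110 in psah2.

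The eligible probes most like AT4G20820 over the 12 arrays were those of AT1G50510 (Pearson r = 0.94), AT4G30150 (0.92), AT4G07670 (0.92), AT1G67930 (0.91) and AT3G09250 (0.89), on the centred log2 scale. Of these, AT4G07670 and AT3G09250 belong to the set. With the mean of each genotype removed, the correlations were 0.97, 0.85, 0.61, 0.78 and 0.48 in the same order. The difference between genotypes and array effects enter these values, and no test was made.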

How the data were processed

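The authors deposited 1 intensity per probe and array on a linear scale from 0 to 100, for 12 single-colour arrays. The sources used here do not state how the deposited intensities were background-corrected or scaled. Groups and replicate numbers came from the sample titles. Each array was divided by its median over all 3439 probes, and changes are mean log2 of psah2 minus mean log2 of WT, with an SE from the array spread. Genes were named through the platform annotation and RefSeq genes of TAIR10.1. That table holds no descriptions, so the planned grouping by description was replaced by groups written from general knowledge after the values were seen. The genes and lists were chosen with earlier results of these data known. No genome build is stated for the probes, so no coordinates are printed, and no sequence table was at hand.

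As background, all probes with at least 4 values above 0 in each group were fitted with limma 3.58.1 in R 4.3.3 on quantile-normalized log2 intensities, 2-sided, with Benjamini-Hochberg adjustment and a threshold of 0.05. The fit was also run on simulated data in which all arrays were independent. That run does not cover the likeness between replicates, and no error rate is taken from it. All 47 genes are named, including those that the planned rule on largest differences, brightest genes and genes next to the threshold did not reach. The 4 genes just outside the threshold are named too. Alternatives were other scalings, filters, averaged consecutive replicates, the replicate number as a block and each array left out. Same-numbered psah2 and WT arrays correlated in their deviations from the group means at r from 0.056 to 0.172, over 0.1 for 4 of 6 numbers. For every number this r exceeded its highest r with another number, which ran from 0.017 to 0.084. The main fit did not take the numbers as pairs, and the fit with the number as a block is given among the alternatives. The number of arrays limits the precision.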

Additional observations from a re-analysis of the deposited data

Results flagged for a closer look

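In 94 groups of 6 arrays (47 genes in psah2 and in WT), the gap of the outermost array to its neighbour was compared with the whole range of log2 values, a test that chance passes in about 1 of 20 groups. It set 1 array apart in 5 groups, or 5.32%, which is about the share chance gives and close to the 5.81% of 844 groups over all eligible single-gene probes. All 5 were psah2 groups with the low array apart. The rule favours this, since a high psah2 array or a low WT array tends to put a gene outside the set. The genotype and direction of the 5 thus describe the set only. Over all eligible probes psah2 also held most of the groups set apart, with 33 psah2 and 16 WT groups, whose directions are not given here. For AT1G17744, psah2 replicate 4 stood at 0.0466 times the array median, with the other 5 psah2 arrays from 0.174 to 0.365 (gap over range 0.639). For AT2G19870, psah2 replicate 1 was at 0.0920, with the others from 0.556 to 1.30 (0.679). For Cpn60beta4, psah2 replicate 6 was at 0.147, with the others from 0.358 to 0.603 (0.630). For AT1G27610, psah2 replicate 5 was at 0.141, with the others from 0.562 to 1.001 (0.706). For AT5G01860, psah2 replicate 1 was at 0.395, with the others from 0.738 to 0.989 (0.682).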

How the results depend on the processing

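Of 53 eligible single-gene probes that met the rule, counts under other choices were 120 with medians over probes above 0 on all 12 arrays, 82 with medians over eligible single-gene probes, 136 with the 75th percentile, 134 with quantile normalization, 309 as deposited, 285 with array means, 111 by rank, 90 with consecutive replicates averaged, 100 with values at 0 allowed, and 53 to 62 without 1 array. The median log2 change of the 47 genes, -1.10, was -1.56, -1.35, -1.66, -1.71, -2.94 and -2.72 under the first 6 of these, and -1.20 to -1.04 without 1 array. It was -1.10 with the replicate number as a block, which cannot move a mean in this balanced design. All 47 genes were apart after quantile normalization and 42 by rank. Leaving out an array or averaging arrays cannot make these genes overlap, and scaling by array means, by the 75th percentile or as deposited only lowers psah2 further, so those settings bear nothing on stability. Array means and ranks were added after the data were seen. Over all tested probes, 958 lower and 667 higher became 448 and 992 with median-centred arrays, 2049 and 251 as deposited, and 938 and 654 with the replicate block. Leaving out 1 array gave 873 to 926 lower and 620 to 659 higher. So the higher share of the calls moves with scaling, and every difference is relative to the array's other probes. Single psah2 arrays near 0 enlarge some of the largest differences, as for AT3G47980, at a log2 change of -2.24 and of -1.38 without psah2 replicate 1, and for AT1G08050, at -1.96 and at -1.30 without psah2 replicate 4.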
